A study of Mus musculus with 6 samples.

Results

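The Hox genes of the 4 mouse clusters were examined in whole uteri of pregnant mice labelled Mettl3 f/f or Mettl3 d/d. Every gene whose symbol is Hox, a cluster letter from a to d and a paralog number was taken, which gave 39 of the 21936 genes with a value: 11 of HoxA, 10 of HoxB, 9 of HoxC and 9 of HoxD. There were 3 libraries of each genotype, all from females 6 to 8 weeks old that had been mated with fertile males, and uteri were collected on gestational day 4, with the day of the plug as day 1. Mettl3 is the methyltransferase that places N6-methyladenosine on RNA. In the usual notation f/f is a floxed allele and d/d its deleted form. No Cre driver and no deleted exon is named in the labels, so the cells that would carry a deletion are not known here. They also do not say that the replicates of a genotype came from separate animals, so all p-values below measure the spread between these libraries, which may be technical.

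Hox genes encode homeodomain transcription factors and lie in clusters in which the order of the genes along the chromosome follows the order of their domains along the body axis. Low paralog numbers mark anterior positions and high numbers posterior ones. In the female tract the posterior HoxA genes are staggered along the Müllerian duct, with Hoxa9 towards the oviduct, Hoxa10 and Hoxa11 in the uterus and Hoxa13 in the cervix and upper vagina. Hoxa10 and Hoxa11 stay active in the adult uterus, where they are needed for the response of the stroma to progesterone and for implantation. HOX proteins bind DNA with partners of the TALE class (PBX, MEIS and PREP proteins), and Polycomb and Trithorax proteins hold the clusters silent or active.

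On the reference annotation (GRCm38, the sequence also called mm10) HoxA spans 105 kb at chr6:52155590-52260880, HoxB 174 kb at chr11:96194316-96368256, HoxC 116 kb at chr15:102921103-103036852 and HoxD 96.8 kb at chr2:74668310-74765142. RefSeq promoter entries (GRCm38.p6) matched 22 of the 39 Hox genes with 24 start sites. The 250 bases before the start are shown 5′ to 3′ on the gene's strand for the 3 genes with the largest falls and for Hoxb8, the HoxB gene with the highest value in any f/f library. Their positions are chr6:52234940-52235189 (Hoxa10, minus strand), chr6:52245811-52246060 (Hoxa11, minus strand), chr2:74682073-74682322 (Hoxd11, plus strand) and chr11:96281655-96281904 (Hoxb8, plus strand). The windows of Hoxa10 and Hoxd11 lie inside the longer gene spans of GENCODE, chr6:52231197-52240854 and chr2:74679557-74687016, which start further upstream. Both genes have another RefSeq start there, whose window is not shown. Capitals mark TTTAT, the core that posterior HOX proteins prefer, CCAAT, the site of the factor NF-Y, and TGTTCT, a half-site of the progesterone and glucocorticoid receptors, on either strand.
Hoxa10 promoter: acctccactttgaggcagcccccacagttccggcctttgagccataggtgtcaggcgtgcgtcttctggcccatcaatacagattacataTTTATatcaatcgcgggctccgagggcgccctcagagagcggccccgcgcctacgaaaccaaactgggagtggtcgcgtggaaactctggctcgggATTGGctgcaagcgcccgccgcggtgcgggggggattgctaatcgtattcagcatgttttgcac
Hoxa11 promoter: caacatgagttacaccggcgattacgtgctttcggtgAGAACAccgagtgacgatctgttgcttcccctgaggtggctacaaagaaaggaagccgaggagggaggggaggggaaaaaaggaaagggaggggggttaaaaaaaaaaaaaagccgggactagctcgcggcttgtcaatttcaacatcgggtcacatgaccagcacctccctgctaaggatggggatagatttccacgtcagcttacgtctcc
Hoxd11 promoter: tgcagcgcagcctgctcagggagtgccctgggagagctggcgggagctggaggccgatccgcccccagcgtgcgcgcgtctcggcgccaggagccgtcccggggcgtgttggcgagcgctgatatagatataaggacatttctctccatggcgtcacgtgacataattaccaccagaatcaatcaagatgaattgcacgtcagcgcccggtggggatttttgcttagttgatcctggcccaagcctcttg
Hoxb8 promoter: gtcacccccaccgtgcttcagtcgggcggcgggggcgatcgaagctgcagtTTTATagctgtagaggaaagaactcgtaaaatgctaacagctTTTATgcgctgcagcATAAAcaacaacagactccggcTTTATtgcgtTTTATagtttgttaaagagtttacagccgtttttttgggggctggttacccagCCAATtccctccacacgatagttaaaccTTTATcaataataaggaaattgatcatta
The 4 windows differed in these letters. Hoxb8 had 6 matches to TTTAT and 1 to CCAAT, Hoxa10 had 1 of each, Hoxa11 had 1 match to TGTTCT alone and Hoxd11 had none of the 3. The window of the other start had 2 matches to TTTAT in Hoxd11 and 1 in Hoxa10, and none to the other motifs marked. Of 32851 promoter windows of the same length in the table, 37.3% held TTTAT, 33.9% held CCAAT and 16.1% held TGTTCT on either strand. Among the 24 Hox starts 9, 14 and 2 did. The TATA core TATAA was found at 6 Hox starts and in 22.8% of all windows, the GC box GGGCGG at 10 and in 32.7%, and the HOX-PBX site TGATNNAT at 4 and in 7.68%. A match to the TATA core can share bases with matches to the HOX motifs. These matches describe the letters and do not show binding.

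The values are FPKM, fragments scaled to the length of the gene and the size of the library, and they sum to 535043 to 625575 in each library. Read numbers are not part of the files, so depth and counting error are unknown. The libraries labelled d/d were less alike (Spearman correlation across tested genes 0.870 to 0.916) than the f/f libraries (0.978 to 0.989). Below, 3 values of a genotype are always those of replicates 1, 2 and 3 in that order. Mettl3 itself measured 30.3, 29.8 and 26.3 FPKM in f/f against 42.9, 30.1 and 46.5 in d/d. It was not lower in d/d (log2 fold change 0.43, SE 0.19, limma adjusted p = 0.202). A value for the whole gene does not check a deletion of some of its exons, so d/d below means a library so labelled. Markers of stroma, epithelium, glands, smooth muscle, endothelium and leukocytes were all above 0 in at least 1 library.

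Of the 39 Hox genes, 24 reached 1 FPKM in at least 3 of the 6 libraries and were tested, 7 of HoxA, 8 of HoxB, 3 of HoxC and 6 of HoxD. Of these 24 genes 7 fell, all in HoxA or HoxD: Hoxa9, Hoxa10, Hoxa11, Hoxd4, Hoxd8, Hoxd10 and Hoxd11. No Hox gene rose. A gene was called at a Benjamini-Hochberg adjusted p under 0.05 by limma over 12979 genes, of which 3.81% were called lower and 3.49% higher in d/d, against 29.2% of the tested Hox genes called lower. At an unadjusted p under 0.05 there were 11 Hox genes, all of them lower. The libraries of the genotypes did not overlap for 11 of the 24, all lower in d/d, against 35.9% of all tested genes (17.8% lower and 18.1% higher). Hoxa2 passed the filter only through its f/f libraries, so these counts describe the genes measured well enough and do not stand for all 39. The calls rest on each of the f/f libraries. Without f/f replicate 1 limma called no gene of 12979 and no Hox gene (2292 and 9 at an unadjusted p under 0.05). Without f/f replicate 2 or 3 it called 2 Hox genes, Hoxa10 and Hoxd11, beside 30 and 111 genes in all. At an unadjusted p under 0.05 there were then 2259 and 2464 genes, with 9 and 11 Hox genes. With any 1 d/d library left out 7 Hox genes were called lower, and without d/d replicate 2 another 2 were called higher. Without d/d replicate 1 or 3 the 7 included Hoxd9 in place of Hoxa9.

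The clusters differed in their counts. In HoxA 3 of 7 tested genes fell, with a median log2 fold change (d/d minus f/f of log2(FPKM + 1)) of −1.0, and in HoxD 4 of 6 fell, with a median of −1.20. In HoxB 0 of 8 and in HoxC 0 of 3 were called in either direction, with medians of 0.08 and −0.06, and the median of all tested genes was 0.02. By position, 5 of 8 tested genes with paralog numbers 9 to 13 fell (median −1.24), 2 of 11 with numbers 4 to 8 (median −0.06) and 0 of 5 with numbers 1 to 3 (log2 fold changes from −0.72 to 0.14). Cluster and number were not independent, since the posterior genes with high values lay in HoxA and HoxD: there 5 of 6 fell, with a median of −1.61. No test of a difference between clusters was made, because genes of a cluster are not replicates.

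**Figure D1:**
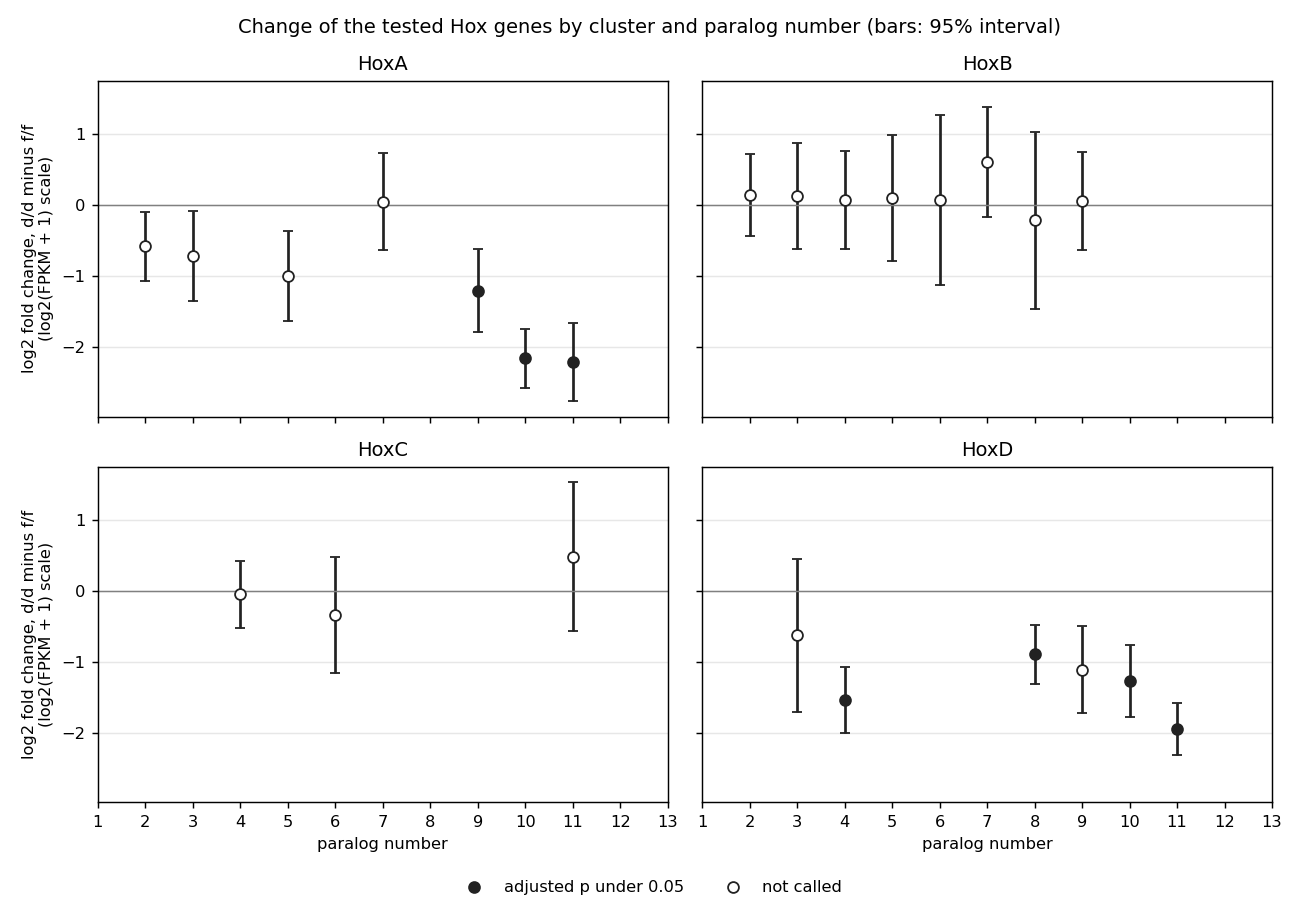
Log2 fold change (d/d minus f/f, log2(FPKM + 1) scale) of the 24 tested Hox genes by paralog number and cluster, with limma 95% intervals and filled symbols for adjusted p under 0.05. The 7 filled genes lie in HoxA and HoxD below 0, from −0.89 for Hoxd8 to −2.22 for Hoxa11, and the HoxB genes lie around 0.

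Hoxa10, which the uterine stroma needs for its decidual response, had the highest FPKM of any Hox gene in each f/f library. It measured 279, 235 and 243 FPKM in the f/f libraries against 56.4, 66.6 and 45.3 FPKM in the d/d libraries. The genotypes did not overlap, and the mean fell from 253 ± 23.4 to 56.1 ± 10.7 FPKM (SD, n = 3 each), 4.50-fold (log2 fold change −2.16, SE 0.17, limma adjusted p = 0.00608). Hoxa11, its neighbour in the cluster, needed for gland formation and decidualization, stood at 136, 131 and 138 in f/f and 26.9, 39.6 and 21.0 FPKM in d/d. Every d/d value was far below every f/f value, a 4.62-fold fall (log2 fold change −2.22, SE 0.23, limma adjusted p = 0.00887). Hoxa11 (chr6:52242106-52245810) shares 800 exon bases with the antisense gene Hoxa11os on the other strand, and no use of strand is stated for these values. Hoxa9 (chr6:52223100-52231089), the next gene towards the anterior, stood at 78.2, 58.4 and 53.95 in f/f and 26.5, 35.4 and 19.9 FPKM in d/d. Its fall was smaller, 2.33-fold (log2 fold change −1.21, SE 0.24, limma adjusted p = 0.0392). Its call was kept without d/d replicate 2 and lost without any 1 of the other 5 libraries (limma adjusted p of 0.0538 to 0.157). Fewer cells that express a gene and less RNA of it per cell cannot be told apart in whole tissue, here or below.

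The HoxA genes anterior to Hoxa9 were far less abundant. Hoxa5 stood at 6.14, 4.12 and 3.14 in f/f and 2.27, 1.62 and 1.21 FPKM in d/d (log2 fold change −1.0, limma adjusted p = 0.0736). Hoxa3 (1.65 to 3.73 FPKM in f/f, 1.01 to 1.55 in d/d) and Hoxa2 (1.20 to 1.53 and 0.313 to 0.869) had log2 fold changes of −0.72 and −0.59 and limma adjusted p = 0.144 and 0.129. For these 3 genes the genotypes did not overlap, but the differences did not pass the threshold. At such low values the pseudocount of 1 understates the log2 fold change. Hoxa7 stood at 1.29 to 3.13 FPKM in f/f and 1.69 to 3.11 in d/d. Among the HoxA genes below the filter, Hoxa6 stood at 0.352 to 1.67 FPKM over the 6 libraries. Hoxa4 measured 0.621, 0.493 and 0.288 FPKM in f/f, with 0.124, 0.339 and 0 in d/d. Hoxa13, the gene of the cervix and vagina, was listed at 0 in 5 libraries and at 0.214 FPKM in d/d replicate 2.

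**Figure D2:**
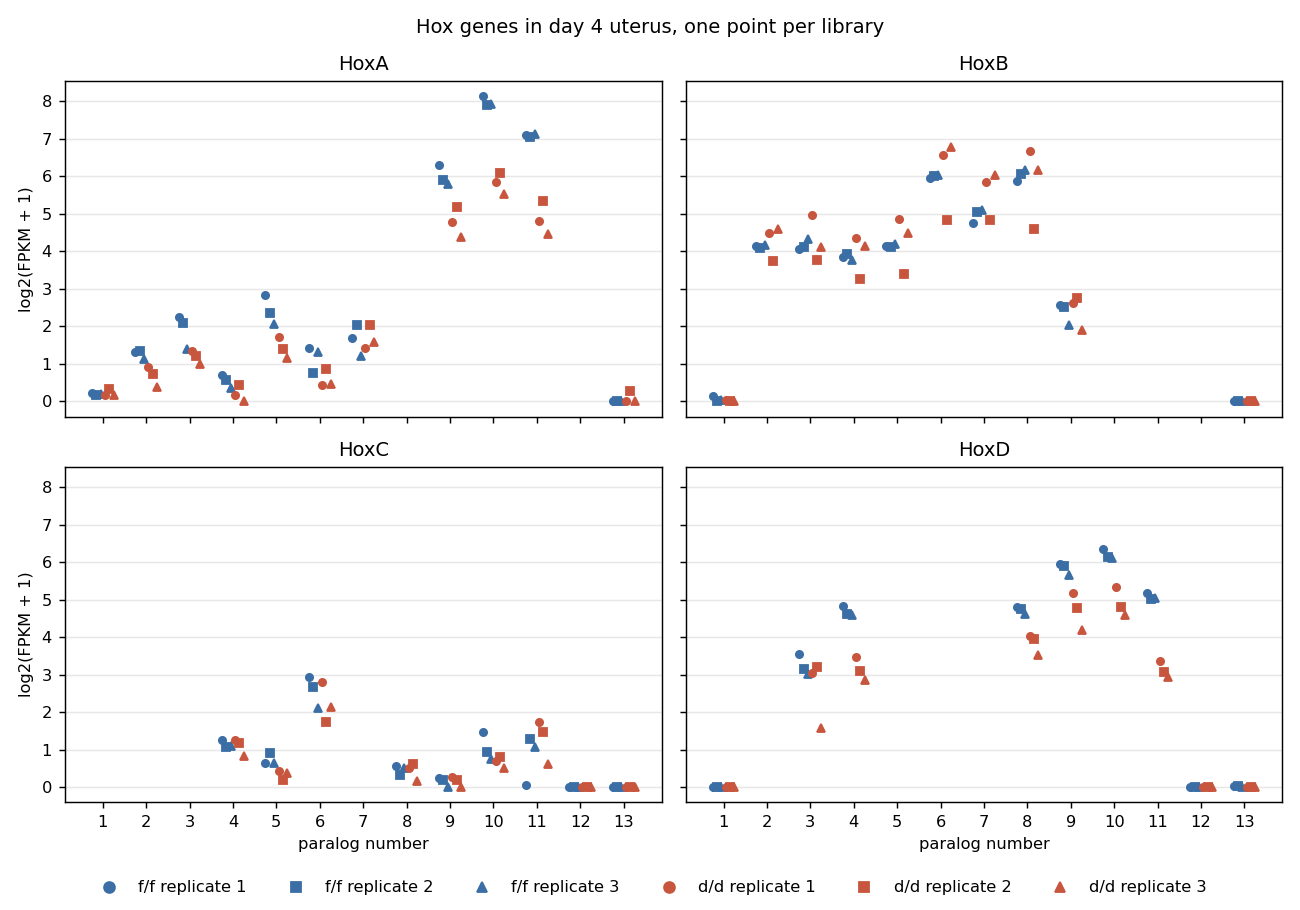
Level (log2(FPKM + 1)) of the 39 Hox genes by cluster and paralog number, with 1 point per library, blue for f/f and red for d/d. The 3 d/d points of Hoxa10, Hoxa11, Hoxd4 and Hoxd11 lie apart from and below the 3 f/f points, and the d/d points of Hoxb2 to Hoxb8 spread more widely than the f/f points, with replicate 2 (squares) lowest.

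HoxD gave the other 4 genes that fell. Hoxd11, the paralog of Hoxa11, stood at 35.0, 31.3 and 31.9 in f/f and 9.28, 7.37 and 6.70 FPKM in d/d. It fell 4.21-fold, with little spread within either genotype (log2 fold change −1.95, SE 0.15, limma adjusted p = 0.00586). Hoxd11 shares 455 and Hoxd10 shares 104 exon bases with Gm28309 on the same strand, so their values are uncertain to that extent. Hoxd10 (chr2:74691924-74695105), the paralog of Hoxa10, stood at 80.3, 69.0 and 68.0 in f/f and 39.6, 27.1 and 23.3 FPKM in d/d. Its fall was 2.42-fold (log2 fold change −1.28, SE 0.21, limma adjusted p = 0.0258). Hoxd9 stood at 60.3, 58.7 and 49.2 in f/f and 34.9, 26.3 and 17.4 FPKM in d/d, without overlap. It missed the threshold (log2 fold change −1.12, SE 0.25, limma adjusted p = 0.0519).

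Hoxd4 and Hoxd8, in the middle of the HoxD cluster, also fell. Hoxd8 (chr2:74704615-74707933) stood at 27.1, 26.0 and 23.5 in f/f and 15.3, 14.6 and 10.4 FPKM in d/d, 1.90-fold lower (log2 fold change −0.89, SE 0.17, limma adjusted p = 0.0357). Hoxd4 (chr2:74711929-74729160) stood at 27.5, 23.7 and 23.0 in f/f and 10.1, 7.60 and 6.18 FPKM in d/d, 3.10-fold lower (log2 fold change −1.54, SE 0.19, limma adjusted p = 0.0150). Hoxd4 and Hoxd3 lie on the same strand and share 388 exon bases in the annotation, and they share 1154 and 2225 with the gene Gm28230. How fragments were divided between these genes is uncertain. Hoxd3 stood at 10.7, 7.80 and 7.08 in f/f and 7.18, 8.17 and 1.99 FPKM in d/d. Its genotypes overlapped (log2 fold change −0.63, limma adjusted p = 0.410). Hoxd1 and Hoxd12 were listed at 0 in all 6 libraries, and Hoxd13 was listed at 0 in 4 libraries and at 0.025 FPKM in the first 2 f/f replicates.

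The exact two-sided permutation test over libraries gave p = 0.1 for each of the 11 Hox genes whose genotypes did not overlap, the lowest value this design can reach.

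In HoxB no gene was called, and the d/d libraries went apart. The genes of this cluster are known for patterning the hindbrain, neck and trunk, with Hoxb2 to Hoxb4 at the anterior end and Hoxb6 to Hoxb9 along the trunk. Hoxb6 stood at 60.7, 63.0 and 64.5 in f/f and 93.2, 27.8 and 109 FPKM in d/d. Hoxb8 stood at 57.4, 65.2 and 71.3 in f/f and 101, 23.1 and 70.6 FPKM in d/d. The f/f values of both genes were close together, while d/d replicate 2 lay below all of them. Hoxb7 stood at 25.8, 32.1 and 33.4 in f/f and 56.4, 27.8 and 64.3 FPKM in d/d. Hoxb5 stood at 16.6, 16.2 and 17.3 in f/f and 27.8, 9.47 and 21.4 FPKM in d/d. Both had d/d replicates 1 and 3 above the f/f range. Hoxb4, the paralog of Hoxd4, stood at 13.4, 14.2 and 12.5 in f/f and 19.3, 8.64 and 16.5 FPKM in d/d. Hoxb3 stood at 15.6, 16.4 and 19.0 in f/f and 30.3, 12.7 and 16.3 FPKM in d/d. Of the 2 genes, only Hoxb4 had both d/d replicates 1 and 3 above f/f. Hoxb2 stood at 16.7, 16.0 and 16.9 in f/f and 21.5, 12.3 and 23.1 FPKM in d/d. Hoxb9, the single posterior HoxB gene tested, stood at 4.90, 4.72 and 3.10 in f/f and 5.13, 5.81 and 2.72 FPKM in d/d. The d/d low of Hoxb9 was in replicate 3, unlike that of the other 7 genes.

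The 8 log2 fold changes ran from −0.22 for Hoxb8 to 0.61 for Hoxb7, with limma adjusted p of 0.282 for Hoxb7 and higher for the others. The 95% interval of Hoxb6 ran from −1.13 to 1.27 and includes both a rise and a fall of 1. Without d/d replicate 2, Hoxb7 and Hoxb6 were called higher by limma, with log2 fold changes of 0.97 and 0.68 and adjusted p = 0.0267 and 0.0340. Hoxb2, Hoxb3, Hoxb4, Hoxb5 and Hoxb8 then had log2 fold changes of 0.38 to 0.52 that did not pass, and Hoxb9 one of −0.12. Hoxb1 stayed at or below 0.103 FPKM, and Hoxb13 was listed at 0 in all 6 libraries. In the annotation Hoxb3 and Hoxb2 share 2250 and 953 exon bases with Hoxb3os on the other strand.

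HoxC was the least abundant cluster. Hoxc6 stood at 6.59, 5.41 and 3.30 in f/f and 5.96, 2.36 and 3.39 FPKM in d/d (log2 fold change −0.34, limma adjusted p = 0.559). Hoxc4 stood at 1.08 to 1.40 FPKM in f/f and 0.768 to 1.40 in d/d, and Hoxc11 at 0.032 to 1.44 and 0.539 to 2.34 FPKM. Hoxc5 (0.146 to 0.864 FPKM), Hoxc8 (0.121 to 0.534), Hoxc9 (0 to 0.211) and Hoxc10 (0.432 to 1.78) did not pass the filter, and Hoxc12 and Hoxc13 were listed at 0 in all 6 libraries. The genotypes overlapped for all 3 HoxC genes tested. A listed 0 can come from an estimate that failed, so none of the 10 Hox genes with a 0 in any library is given a fold.

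FPKM is a per-length scale, so the clusters can be set against one another within a library. HoxA made up 52.4%, 49.1% and 49.8% of the summed Hox FPKM in the f/f libraries and 19.5%, 39.9% and 18.8% in the d/d libraries. HoxB made up 21.7%, 25.5% and 26.7% in f/f and 59.2%, 34.0% and 66.6% in d/d. In every f/f library HoxA was the largest cluster. In replicates 1 and 3 of d/d it was HoxB, and d/d replicate 2 stood between, with HoxA still ahead. HoxD made up 22.7% to 24.8% in f/f and 13.5% to 24.3% in d/d, and HoxC 0.806% to 1.14% and 1.14% to 1.88%.

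The total moved as well. The 39 genes summed to 972, 893 and 892 FPKM in f/f and to 599, 376 and 487 FPKM in d/d. HoxA alone summed to 509, 438 and 444 FPKM in f/f and to 117, 150 and 91.3 FPKM in d/d, and HoxB to 211, 228 and 238 and to 355, 128 and 324 FPKM. The HoxA sum was lower in all 3 d/d libraries, and the HoxB sum was higher in 2 and lower in 1. Genes with paralog numbers 9 to 13 made up 66.0% to 69.5% of the f/f sum and 33.7%, 56.2% and 28.2% of the d/d sums, and genes with numbers 1 to 3 made up 4.98% to 5.15% and 8.79% to 10.3%.

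**Figure D3:**
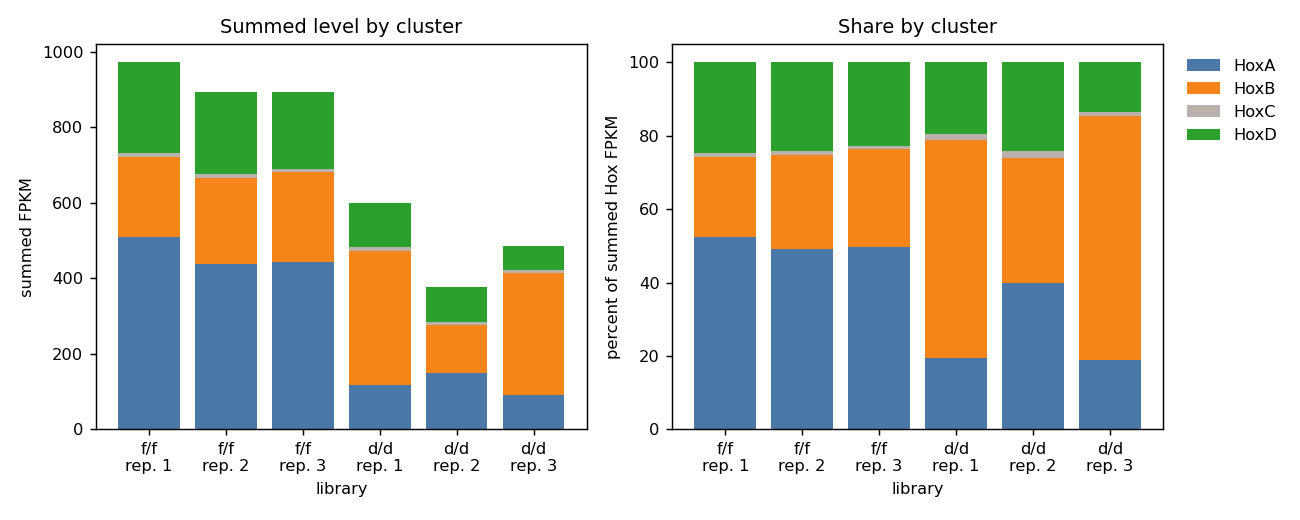
Summed FPKM of the 39 Hox genes (left) and the share of that sum (%) held by each cluster (right), with 1 stacked bar per library and 1 colour per cluster. The sums are 892 to 972 FPKM in f/f and 376 to 599 in d/d, and HoxA holds 49.1% to 52.4% in the f/f libraries, 19.5% and 18.8% in d/d replicates 1 and 3 and 39.9% in d/d replicate 2.

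Along the clusters, the log2 fold change became more negative with the paralog number in HoxA (Spearman correlation across genes −0.79, 7 genes) and HoxD (−0.66, 6 genes). In HoxB it did so too (−0.60, 8 genes), over a range that the spread between d/d libraries covered. In HoxA the more abundant genes of f/f were also those with the larger falls (−0.93, against −0.37 in HoxD and −0.10 in HoxB), so number and level cannot be told apart there. These correlations are descriptions across genes that share the same 6 libraries, and genes are not independent replicates. The pseudocount of 1 also shrinks the changes of low genes. As f/f to d/d ratios of mean FPKM, Hoxa2, Hoxa3 and Hoxa5 stood at 2.28, 2.23 and 2.63. Hoxa7 stood at 0.976 and Hoxa9 at 2.33. The decline was not even: Hoxd4 fell 3.10-fold between Hoxd3, which did not pass, and Hoxd8, which fell 1.90-fold.

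Paralogs with the same number but in different clusters were compared as the log2 ratio of their FPKM + 1 within each library, in 6 pairs with a mean of at least 5 FPKM in both genes. The ratio of Hoxb4 to Hoxd4 was −0.84 ± 0.14 in f/f and 0.77 ± 0.57 in d/d (SD, n = 3 each), a difference of 1.61 with no overlap. So Hoxd4 was the higher of the pair in all 3 f/f libraries and Hoxb4 in all 3 d/d libraries. The ratio of Hoxa10 to Hoxd10 went from 1.79 ± 0.03 to 0.90 ± 0.38, a difference of −0.89 with no overlap, so Hoxa10 lost more than Hoxd10. Both differences had an exact permutation p = 0.1, the smallest possible, and 0.3 after Benjamini-Hochberg adjustment over the 6 pairs, so neither passed. For Hoxa11 to Hoxd11 the difference was −0.27, for Hoxa9 to Hoxd9 −0.09, for Hoxb3 to Hoxd3 0.75 and for Hoxb8 to Hoxd8 0.67, with overlap in all 4 (exact permutation p = 0.3 to 0.9). With 1 library left out, the difference ran from 0.33 (without d/d replicate 3) to 1.31 (without d/d replicate 2) for Hoxb3 to Hoxd3. It ran from 0.34 (without d/d replicate 1 or 3) to 1.35 (without d/d replicate 2) for Hoxb8 to Hoxd8, and from −0.11 (without d/d replicate 1) to −0.53 (without d/d replicate 2) for Hoxa11 to Hoxd11. With 3 libraries each, these 4 pairs are not shown to act alike.

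**Figure D4:**
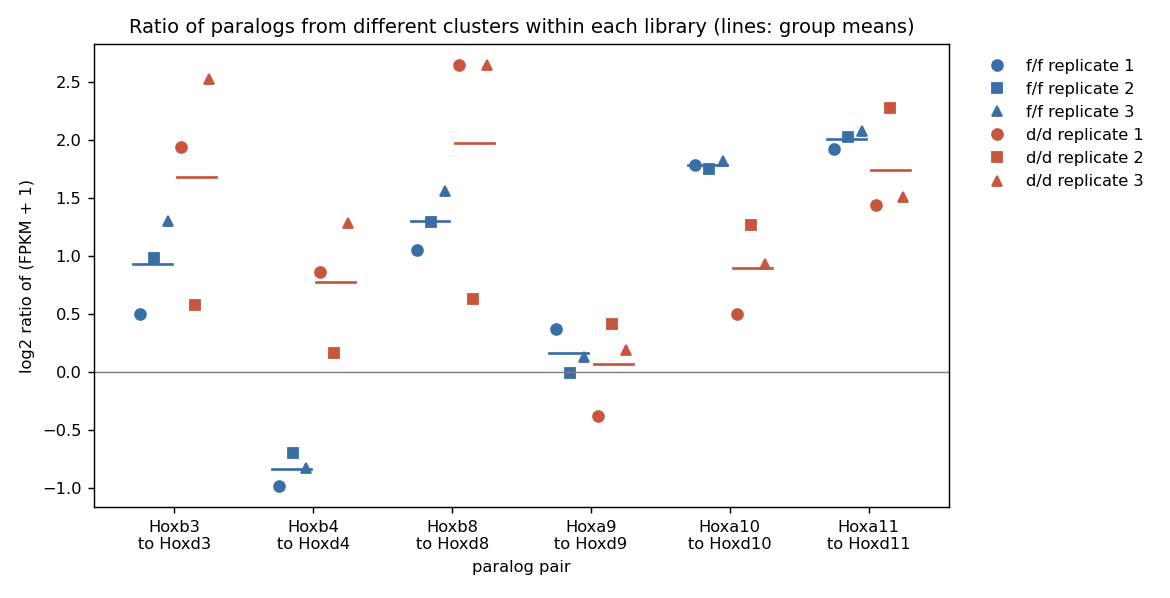
Log2 ratio of (FPKM + 1) of 6 paralog pairs in each library (points, f/f and d/d side by side) with the mean of each genotype (lines). The f/f and d/d points are separate for Hoxb4 to Hoxd4 (f/f below 0, d/d above 0) and for Hoxa10 to Hoxd10, and overlap for the other 4 pairs.

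The d/d libraries differed in marker genes of cell types, and the HoxB genes moved with some of them. As the median deviation from the f/f mean (log2(FPKM + 1)), the posterior genes of HoxA and HoxD stood at −1.46, −1.56 and −1.88 in d/d. The central HoxB genes stood at 0.64, −0.75 and 0.34. The 14 epithelial markers stood at 0.99, −0.32 and 1.40 and the 14 stromal markers at −0.92, 0.18 and −0.62, so the HoxB genes had the signs of the epithelial markers and the opposite signs of the stromal ones. The posterior HoxA and HoxD genes were low in all 3 d/d libraries, also in replicate 2, where the stromal median was above 0. The stromal markers did not all follow their median. Hand2 stood at 53.8 to 65.9 FPKM in f/f and 24.2, 19.0 and 11.1 in d/d. Nr2f2 stood at 113 to 132 FPKM in f/f and 92.7, 66.9 and 71.0 in d/d. Endothelial markers (−0.63, −0.50 and −1.09) and gland markers (−0.09, −1.15 and −2.03) also had medians below 0 in all 3 d/d libraries, unlike the other marker lists.

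In sums of FPKM the lists also differed between libraries. Stromal markers summed to 3680 to 4120 FPKM in f/f and to 2301, 5200 and 3990 FPKM in d/d, and 2 of 14 fell: Hand2 (log2 fold change −1.71) and Wt1 (−1.53), both transcription factors of uterine stroma. Among all tested genes 3.81% fell and 3.49% rose. Epithelial markers summed to 2126 to 2175 FPKM in f/f and to 4039, 1401 and 5400 FPKM in d/d, and 3 of 14 rose, among them Krt7 and Epcam. Without d/d replicate 2 it was 10 of 14, and 4 stromal markers fell. Leaving out d/d replicate 1 gave 2 epithelial markers higher, with 3 stromal markers lower and 2 higher. Without any 1 f/f library 0 markers of either list were called. Leukocyte markers summed to 210 to 275 FPKM in f/f and to 490, 2845 and 264 FPKM in d/d (1 of 11 tested rose, Cd68), so d/d replicate 2 stood apart in them. Smooth muscle markers summed to 2679 to 6354 FPKM in f/f and 1232 to 5066 in d/d (1 of 10 fell, Smtn), and endothelial markers to 447 to 679 and 258 to 418 FPKM (1 of 10 fell, Cdh5). Gland markers summed to 97.0 to 134 FPKM in f/f and 52.9 to 130 in d/d (3 of 8 tested fell and 1 rose), and mesothelial ones to 0.788 to 2.89 and 1.83 to 22.5 FPKM. Without any 1 f/f library 0 smooth muscle, endothelial or leukocyte markers were called, and 0 or 1 gland marker fell and 0 rose. Smooth muscle also had 0 calls with a pseudocount or filter of 0.1, with no filter and with weights per genotype. The same held with no intensity trend, with a replicate block and without d/d replicate 1 or 2, while 2 fell without d/d replicate 3. No marker was at 0 in all libraries. The part of these cell type differences in the Hox values was not tested.

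**Figure D5:**
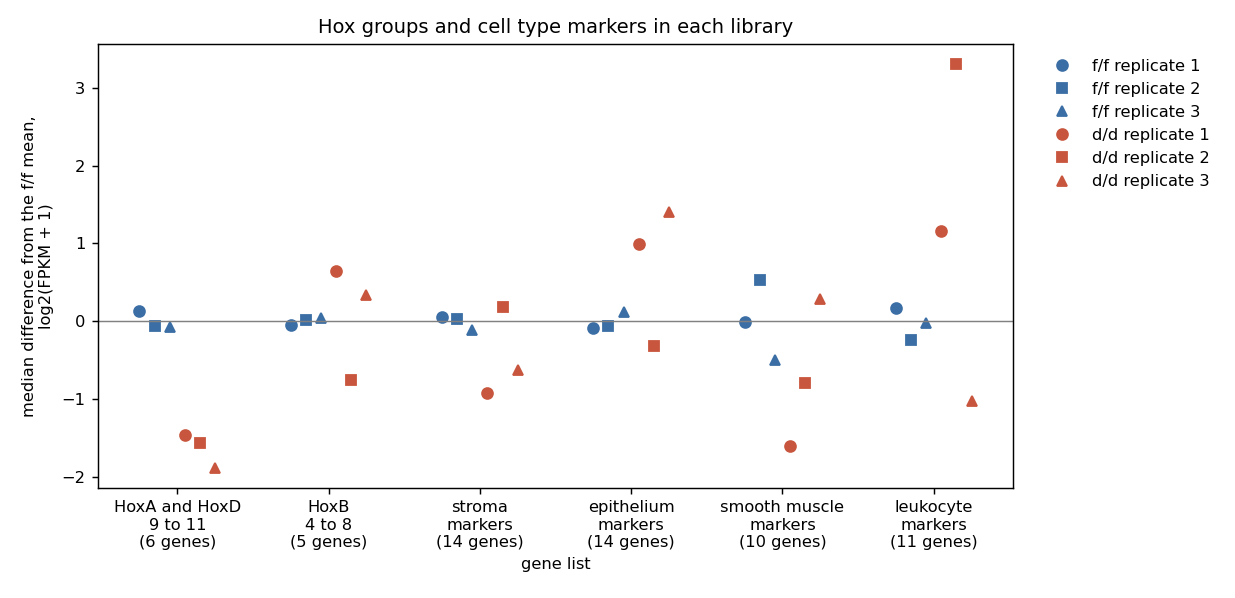
Median deviation of each library from the f/f mean (log2(FPKM + 1)) for 2 groups of Hox genes and 4 lists of cell type markers, with 1 point per library. The posterior HoxA and HoxD genes lie at −1.46 to −1.88 in all 3 d/d libraries, while central HoxB genes and epithelial markers are above 0 in replicates 1 and 3 of d/d and below 0 in replicate 2.

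The genes outside the clusters whose values were most like the mean of Hoxa10 and Hoxa11 over the 6 libraries were Sema4g, Oaz2, Zfp454, Col18a1 and Gm2237 (Pearson r from 0.998 for Gm2237 to 0.9997 for Sema4g). With 2 well separated groups of 3, such values follow from a similar difference between genotypes, and they are given as a description. Sema4g, a semaphorin, stood at 4.32, 4.14 and 4.20 in f/f and 1.90, 2.24 and 1.62 FPKM in d/d. Oaz2, an inhibitor of polyamine synthesis, stood at 75.1, 75.0 and 76.3 in f/f and 51.7, 54.8 and 49.1 FPKM in d/d. Both fell (limma adjusted p = 0.0322 and 0.0357). Zfp454 (2.63 to 2.76 FPKM in f/f, 0.528 to 0.971 in d/d) and Gm2237 (1.84 to 1.93 and 0.649 to 0.902) passed the filter only through their f/f libraries. Gm2237 was not called (limma adjusted p = 0.0514).

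Of 11 TALE genes 4 fell and 1 rose, against 7.3% of all tested genes called in either direction, and the median was −0.26. The list joins the HOX partners (PBX, MEIS and PREP) with the TGIF genes of the same class. Pbx4, a PBX partner, stood at 5.71, 6.68 and 4.15 in f/f and 1.92, 1.05 and 0.930 FPKM in d/d (log2 fold change −1.51, limma adjusted p = 0.0251). Tgif2 (−0.95) and Pknox2 (−0.99) fell too. Tgif1, a corepressor of the same class, stood at 54.6, 45.1 and 43.9 in f/f and 101, 86.1 and 81.0 FPKM in d/d (0.89, limma adjusted p = 0.0253). So the called genes of the list did not all move in 1 direction, and the 1 that rose was a TGIF gene. Without any 1 f/f library, or with a replicate block, 0 of the 11 were called.

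Regulators that hold Hox clusters silent or active were called about as often as all tested genes, of which 7.3% were called. Of 22 Polycomb genes 1 fell, Phf19, at 3.27 to 4.15 FPKM in f/f and 1.44 to 2.01 in d/d (log2 fold change −0.78, limma adjusted p = 0.0499), and the median was −0.08. Ezh2, the enzyme of the complex, had a log2 fold change of 0.32 (limma adjusted p = 0.204). Of 21 tested Trithorax genes and other activators 1 fell, Psip1, which tethers the activator MLL to chromatin, from 82.2, 76.0 and 76.0 FPKM in f/f to 50.2, 44.0 and 37.9 FPKM in d/d (−0.82, limma adjusted p = 0.0262), and the median was 0.05. Men1 was listed at 0 in all libraries. Of 10 tested genes upstream of Hox genes in the embryo, among them retinoic acid receptors, 0 were called by limma, with a median of −0.02. Their log2 fold changes ran from −2.29 to 2.97, so this median joins large changes in both directions. Cyp26b1 stood at 12.4, 2.17 and 2.82 in f/f and 0.386, 0.464 and 1.16 FPKM in d/d, without overlap (−1.74, limma adjusted p = 0.114). Crabp1 stood at 13.5, 8.26 and 13.4 in f/f and 0.496, 0.102 and 9.11 FPKM in d/d, with overlap (−2.29, limma adjusted p = 0.142). Rara, the receptor with the smallest p, stood at 13.01 to 16.0 FPKM in f/f and 21.1 to 25.9 in d/d, without overlap (0.62, limma adjusted p = 0.0553). The calls of Phf19 and Psip1 were lost without any 1 f/f library and with a replicate block. That of Phf19 was also lost without d/d replicate 2, with a pseudocount or filter of 0.1, with no filter, under quantile normalization and with weights per genotype.

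Of 16 tested genes beside the 4 clusters 0 fell and 1 rose, with a median of 0.08, a share near the 7.3% called among all tested genes. Skap2, 143 kb beyond the anterior end of HoxA, rose from 18.6, 20.5 and 14.6 FPKM in f/f to 32.8, 47.9 and 39.0 FPKM in d/d (log2 fold change 1.11, limma adjusted p = 0.0288), opposite in direction to HoxA. Mtx2, 60.7 kb from HoxD, stood at 41.0 to 48.6 FPKM in f/f and 43.6 to 57.6 in d/d. Evx1 and Evx2, homeobox genes at the posterior ends of HoxA and HoxD, were listed at 0 in all libraries. Without any 1 f/f library, or with a replicate block, the call of Skap2 was lost.

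Of 18 tested other homeobox genes of the uterus 1 fell and 1 rose, against 7.3% of all tested genes called. Tshz3, a zinc finger homeobox gene known for its role in ureteral smooth muscle, fell from 15.0, 11.4 and 12.7 FPKM in f/f to 3.07, 3.50 and 2.44 FPKM in d/d (log2 fold change −1.81, limma adjusted p = 0.00824). Emx2, which patterns the urogenital tract and is known as a gene that HOXA10 represses, rose from 34.0, 33.4 and 38.2 FPKM to 71.7, 50.3 and 61.1 FPKM (0.77, limma adjusted p = 0.0415). The median of the list was 0.22. No gene of the list rose with no filter, under upper-quartile scaling or quantile normalization, or with a replicate block. None rose without d/d replicate 3 or any 1 f/f library either, and 5 rose without d/d replicate 2. No gene of the list fell with a replicate block or without f/f replicate 1 or 2, so the call of Tshz3 was lost there. Msx2 stood at 1.55, 2.90 and 3.48 in f/f and 27.2, 4.52 and 22.1 FPKM in d/d, with the same low d/d replicate 2 as HoxB (2.11, limma adjusted p = 0.0960). Of 13 tested genes of Müllerian duct patterning, Hand2 fell and Wnt4 and Emx2 rose, with a median of −0.00. Under upper-quartile scaling 2 fell and 1 rose, and with a replicate block 0 fell and 1 rose. Without d/d replicate 2 there were 1 and 4, and without d/d replicate 1 there were 3 and 1. Without any 1 f/f library 0 were called.

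Of 16 tested genes reported to lie downstream of Hoxa10 or Hoxa11 in the uterus, 5 rose and 0 fell, with a median of −0.06, against 3.49% and 3.81% of all tested genes. Wnt4, a Wnt ligand of the decidual response, stood at 2.06, 1.26 and 0.849 in f/f and 24.4, 20.1 and 7.90 FPKM in d/d (log2 fold change 2.85, limma adjusted p = 0.0227). Muc1, a mucin of the luminal surface, stood at 27.6, 40.1 and 53.2 in f/f and 177, 172 and 589 FPKM in d/d (2.72, limma adjusted p = 0.0352). Cdkn2b (1.55), a cell cycle inhibitor, Bcl6 (0.81), a transcriptional repressor, and Emx2 (above) also rose. Itgb3, an integrin chain that HOXA10 is known to activate, stood at 7.54 to 8.68 FPKM in f/f and 3.27 to 9.07 in d/d, with overlap. Another 5 genes had lower values without overlap but did not pass: Gzmb, Igfbp5, Klf9, Ptger4 and Ptger3 had log2 fold changes of −3.04, −0.69, −1.25, −0.66 and −1.40 (limma adjusted p of 0.0532 to 0.0938). Among all tested genes 17.8% were lower without overlap, called genes included. Klf9, Ptger4 and Ptger3 were chosen after their values were seen. The list joins genes reported as activated and as repressed, so its count has no single direction. Under upper-quartile scaling 3 rose and 2 fell, under quantile normalization 4 and 3, with weights per genotype 4 and 2, and with no filter 2 and 0. With a replicate block 1 rose and 0 fell. Without d/d replicate 2 there were 5 and 4, and without d/d replicate 3 there were 3 and 3. Without d/d replicate 1 there were 4 and 1, and without any 1 f/f library 0 were called.

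Mettl3 acts on short sequences, of which GGACT in DNA letters is a common core. The longest protein-coding transcript of each gene (GENCODE M21) was searched for GGACT. Other forms of the site were not searched, so a gene without GGACT can still hold a site. The 29-base windows around the site nearest the stop codon are shown for genes that fell and for HoxB genes, 5′ to 3′ with the core in capitals. They lie in the coding sequence of Hoxa10 (282 bases from the stop codon) and Hoxd11 (930 bases), and in the 3′ UTR of Hoxd10 (68 bases), Hoxb6 (102 bases) and Hoxb8 (14 bases).
Hoxa10 GGACT window: ttcgccggagaaGGACTccctgggcagtt
Hoxd11 GGACT window: cgtggccccgtcGGACTtcgccagcaagc
Hoxd10 GGACT window: ctgagtgctggaGGACTggcaaggcggaa
Hoxb6 GGACT window: gggggagtctggGGACTtgctgtccagag
Hoxb8 GGACT window: aggctccagctgGGACTgctcgggcccgg
Hoxa11, with the largest fall, had 0 such cores, and Hoxa10 and Hoxd11 had 1 each. The Hoxd11 transcript was 1111 bases long, against a median of 2560 in the Hox genes that fell. It ended shortly after the stop codon, so almost no 3′ UTR was searched for Hoxd11. Hoxa9 had 4, Hoxd4 3, Hoxd8 2 and Hoxd10 3, while Hoxb6, Hoxb7 and Hoxb8, which were not called, had 4, 3 and 4. At least 1 core was found in 22 of the 24 tested Hox genes (91.7%) and in 92.5% of 12929 tested genes with a transcript. The median density was 0.900 per kb in the Hox genes that fell, 1.17 in the other tested Hox genes and 1.06 in all. Across the 24 genes the log2 fold change and the density had a Spearman correlation of 0.09. A match is a description of the letters, and methylation was not measured in these files.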

How the data were processed

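RNA was measured in 6 whole-uterus libraries, 3 per labelled genotype. The authors deposited 1 value per gene and library, taken here as FPKM. The unit was inferred, since the values are decimals whose totals differ and Cufflinks writes FPKM. The submitters' processing notes name HISAT2 2.2.1, Cufflinks 2.2.1 and both mm9 and mm10. For the role of each build, the annotation and strand, nothing was stated (not given in the sources used here). Since fragments that match several genes are divided by Cufflinks, values of overlapping genes depend on that step. Depth is unknown, so no counting error is given.

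Of rows that shared a symbol the highest was kept (36 removed). Genes with at least 1 FPKM in at least 3 of 6 libraries (12979) were compared on the log2(FPKM + 1) scale by limma 3.58.1 (R 4.3.3, intensity trend, two-sided, Benjamini-Hochberg over all tested genes, called at 0.05). The pseudocount of 1 understates changes of low genes. Folds are ratios of mean FPKM. The test was checked on simulated data. Hox genes with a mean of at least 5 FPKM in a genotype, and those called, are given by library. Of supporting lists up to 4 genes by p, and those called, could be named. A few of these genes are left out of the text and not reported here. Coordinates are those of GENCODE M21 and RefSeq (GRCm38), matched by symbol. The members and lists were chosen with earlier results of these data known. Alternatives were another pseudocount, other filters, scalings, weights and variance models, a replicate block and leaving out each library.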

Additional observations from a re-analysis of the deposited data

How the results depend on the processing

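Hoxa10 and Hoxd11 were called lower under 13 of 14 alternatives, Hoxa11 and Hoxd4 under 11, Hoxd10 under 10, Hoxd8 under 9 and Hoxa9 under 6, and Hoxd9, which was not called at the settings of the report, under 5, of which 3 use all libraries. The numbers of called genes, lower Hox genes and higher Hox genes ranged over 0 to 1367, 0 to 7 and 0 to 2 when 1 library was left out. The deviations of same-numbered libraries from their genotype means had correlations of −0.020, 0.020 and −0.021, and those of differently numbered ones −0.14 to 0.12. With 3 libraries per genotype such values cannot show whether same-numbered libraries shared a batch, and the labels do not say so. A replicate block left 100 genes and 4 Hox genes (Hoxa10, Hoxa11, Hoxd11 and Hoxd4) called. Without a filter 5 Hox genes were lower, and under upper-quartile scaling or quantile normalization 8. The median of HoxA was −0.65 with a filter at 0.1 FPKM and −0.59 without one, where genes with lower values enter. The pseudocount does not enter the shares.

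Changes of direction were limited to genes not called at the settings of the report and 1 ratio. Under upper-quartile scaling the log2 fold changes were −0.012 for Hoxb6, −0.0099 for Hoxb9, −0.014 for Hoxa7 and −0.0048 for Hoxb4. Under quantile normalization they were −0.013 for Hoxb6 and 0.15 for Hoxc4. With 1 library left out they ranged from −0.29 to 0.68 for Hoxb6, −0.12 to 0.32 for Hoxb9, −0.18 to 0.24 for Hoxa7, −0.14 to 0.39 for Hoxb4, −0.21 to 0.52 for Hoxb5, −0.22 to 0.38 for Hoxb3, −0.65 to 0.39 for Hoxb8, −0.14 to 0.076 for Hoxc4 and −0.018 to 0.41 for Hoxb2. The difference in the ratio of Hoxa9 to Hoxd9 ranged from −0.26 to 0.14. The depth of the libraries is unknown and limits genes near 1 FPKM. Apart from leaving out d/d replicate 2, no alternative called a HoxB gene. The cause of these differences was not tested.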
